A study of Canis lupus familiaris with 25 samples.

Results

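The 150 genes described here had the largest positive difference between canine lymphomas labelled T-cell and those labelled B-cell, out of 32704 genes in a table of raw read counts. For each gene and dog the count was scaled to a library total of 1000000 (CPM) and taken as log2(CPM + 1). The median over the 17 dogs labelled B-cell was then subtracted from the median over the 3 dogs labelled T-cell, and the 150 genes with the largest result are called the members. The members were thus chosen by their measured levels in those 20 dogs. RNA-Seq was run on needle aspirates of enlarged lymph nodes from 25 pet dogs with naturally occurring lymphoma, 1 sample per dog. All samples were taken before CHOP, a combination of cyclophosphamide, doxorubicin, vincristine and prednisone, and dogs that had received a single injection of prednisone were still eligible. A further 5 dogs have an unknown immunophenotype in the labels and were not used by the rule. There were no healthy control samples.

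The T-cell group holds dog 028A, with short survival, and dogs 036A and 038A, with long survival. The unknown group holds dogs 024A and 035A, with short survival, and dogs 025A, 026A and 031A, with long survival. The B-cell group holds 5 dogs with short and 12 with long survival. Each sample name ends in a sheet number, and these numbers form a consecutive series of 11 dogs, all labelled B-cell, and an odd-numbered series of 14 dogs. The odd series holds all 3 T-cell dogs, all 5 unknown dogs and 6 B-cell dogs (027A, 029A, 030A, 033A, 034A and 037A). The labels do not say what the numbers stand for. In the paper the samples clustered by the technician who had isolated them, and the authors propose some batch effects. Its text does not say which dogs each technician handled, so a link with the series was not tested.

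Lymphomas are tumours of lymphocytes. T-cell lymphomas grow from the lineage that recognises antigen through the T-cell receptor and its CD3 chains, while B-cell lymphomas grow from the lineage that makes antibodies, and flow cytometry of surface proteins tells them apart. A lymph node aspirate also carries non-malignant lymphocytes, macrophages and stromal cells, so the RNA of a sample is a mixture. In such samples fewer cells of a type and less RNA per cell cannot be told apart. The files list genes by Ensembl identifier without names, and 0 of the 32704 identifiers matched a gene symbol. The roles of the members are therefore not given, and the labelled immunophenotypes could not be checked against T-cell or B-cell marker genes. Few identifiers are printed for the same reason.

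The count totals ran from 9592039 in dog 029A to 28979456 in dog 016, and dog 036A had 12500534. FPKM values, which scale for depth and gene length, were deposited for the same dogs. In 2 dogs the tables did not match. Over the 150 members, after the mean of each gene over all dogs was subtracted from log2(CPM + 1) and log2(FPKM + 1), the tables had a Pearson's r of 0.0564 in dog 037A, labelled B-cell, and 0.652 in dog 024A, of unknown immunophenotype. In the other 23 dogs r was at least 0.781. These correlations are across genes, which are not independent replicates.

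The rule itself set the size of the difference between T-cell and B-cell, so these values are given as a description without a test. The difference of medians ran from 3.25 to 8.80 on the log2(CPM + 1) scale, with a median of 4.16. The last 3 members inside the limit had differences of 3.251, 3.251 and 3.246, and the first 3 genes outside had 3.245, 3.240 and 3.229, so the border is not a gap. The members had low to moderate levels in B-cell lymphoma. Their B-cell medians lay between 0.0604 and 108.9 CPM with a median of 2.52 CPM, 35 of the 150 were under 1 CPM and 22 reached 10 CPM. Their T-cell medians lay between 9.36 and 1323 CPM with a median of 74.4 CPM.

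The gene with the largest difference, ENSCAFG00000013879, had 1055 CPM in dog 028A, 954 CPM in dog 036A and 1.59 CPM in dog 038A. In the B-cell dogs it ranged from 0.0874 to 10.2 CPM with a median of 1.15 CPM, and in the unknown dogs from 0.865 to 4.92 CPM. Thus 2 of the 3 T-cell dogs stood far above every other dog, and the third lay within the B-cell range. ENSCAFG00000008485, the next in order, had 925 CPM in dog 028A, 2592 CPM in dog 036A and 10.5 CPM in dog 038A. Its B-cell values ran from 0.384 to 26.3 CPM with a median of 3.38 CPM, and its unknown values from 2.58 to 29.1 CPM. The highest unknown dog was 035A, which passed the highest B-cell dog, 029A, by little.

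This division of the T-cell dogs held for most members. The median log2(CPM + 1) over the 150 members was 6.42 in dog 028A, 7.07 in dog 036A and 2.53 in dog 038A. In the B-cell dogs the same median ran from 0.787 to 4.10. Dog 038A was the lowest of the 3 T-cell dogs in 142 of the 150 members, dog 028A in 4 and dog 036A in 4. A median of 3 values is the middle value, so a gene needed only 2 high T-cell dogs to become a member. The middle T-cell value exceeded the lowest by a median of 3.61 and the highest exceeded the middle by a median of 0.81, both as log2 differences.

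**Figure D1:**
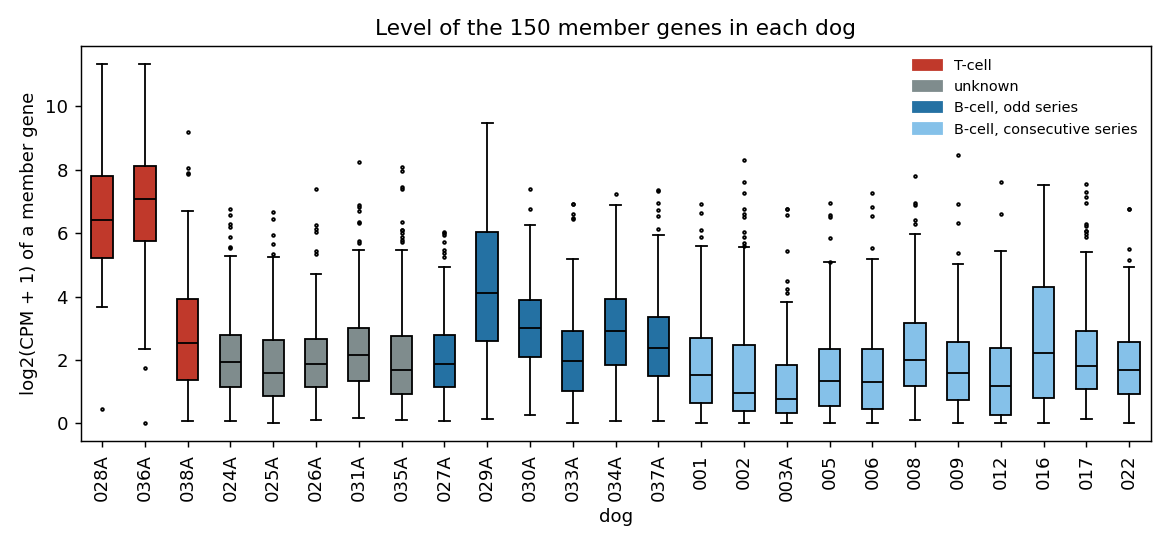
Level of the 150 members in each dog, as log2(CPM + 1), with the line at the median, the box at the quartiles, whiskers to 1.5 times the box height and points beyond. Dogs 028A and 036A have medians of 6.42 and 7.07, dog 029A of 4.10 and dog 038A of 2.53, and the 5 unknown dogs lie between 1.58 and 2.15.

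The summed CPM of the members gave the same picture. They took 3.44% of all counts in dog 028A, 3.60% in dog 036A and 0.310% in dog 038A. In the B-cell dogs the share ran from 0.0645% to 0.952% with a median of 0.122%, and in the unknown dogs from 0.0992% to 0.193%. On the FPKM scale, which allows levels to be compared between genes, the median member had 26.0 FPKM in dog 028A, 34.4 FPKM in dog 036A and 1.17 FPKM in dog 038A. The highest B-cell dog, 029A, had a median of 3.88 FPKM and the highest of the other 16 had 1.24 FPKM.

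Each dog was then compared with the median of the 17 B-cell dogs, gene by gene, and the members at least 4-fold higher on the log2(CPM + 1) scale were counted. The background is the share of all 21752 genes kept by edgeR's filter on low counts over the T-cell and B-cell dogs, a filter that 149 of the 150 members passed. Dog 028A had 98.7% of the members past this limit (background 2.68%) and dog 036A had 97.3% (background 4.43%), and 144 members were past it in both. Since the rule selected for these differences, nothing is read from those counts. Dogs 028A and 036A were within 2-fold of each other in 83 of the 150 members.

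Dog 038A had 18 members past 4-fold, 12% of the 150, against a background of 0.91%. The rule used this dog too, although it seldom supplied the middle value. All 18 were also past 4-fold in at least 1 B-cell dog. Dog 002, labelled B-cell and in the consecutive series, shared 11 of them, which is 61.1% of the 18 in dog 038A and 78.6% of the 14 in dog 002 (background of dog 002 0.883%). Of the same 18, 9 were past 4-fold in at least 1 unknown dog, as were 29 of all 150. These overlaps between dogs were not computed over all genes, so they are not read as particular to the members. Dog 038A was above the B-cell median in 128 of the 150 members and above the median of the 6 B-cell dogs of its own odd series in 66. The shares of all genes above these medians were not computed, so nothing is read from the 2 counts. Its median difference from the B-cell median was 0.50 over the members and 0.09 over all genes kept by the filter.

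Dog 028A was above every B-cell dog in 123 members (82%, background 9.06%), dog 036A in 139 (92.7%, background 13.9%) and dog 038A in 6 (4%, background 4.15%). All 3 T-cell dogs lay above all 17 B-cell dogs in 3 members (background 0.386%), and at least 2 of the 3 did in 122 members (background 6.0%). The rule used these values as well, so shares over the background are built into the counts of dogs 028A and 036A and into the joint counts. The share of dog 038A was near its background. The 3 members, named after their values were seen, were ENSCAFG00000003432, ENSCAFG00000003103 and ENSCAFG00000000353. ENSCAFG00000003432 had 58.1, 49.0 and 37.8 CPM in dogs 028A, 036A and 038A, a highest B-cell value of 34.0 CPM in dog 002, and 0.721 to 2.61 CPM in the unknown dogs. ENSCAFG00000003103 had 197, 324 and 82.6 CPM in the T-cell dogs, a highest B-cell value of 64.3 CPM, also in dog 002, and 5.21 to 7.35 CPM in the unknown dogs. For both, the unknown dogs sat at the low end, near or under the B-cell medians of 1.38 and 8.52 CPM. ENSCAFG00000000353 differed in this respect, with 1052, 179 and 81.1 CPM in the T-cell dogs, up to 58.6 CPM in the B-cell dogs and from 4.27 to 68.2 CPM in the unknown dogs.

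**Figure D2:**
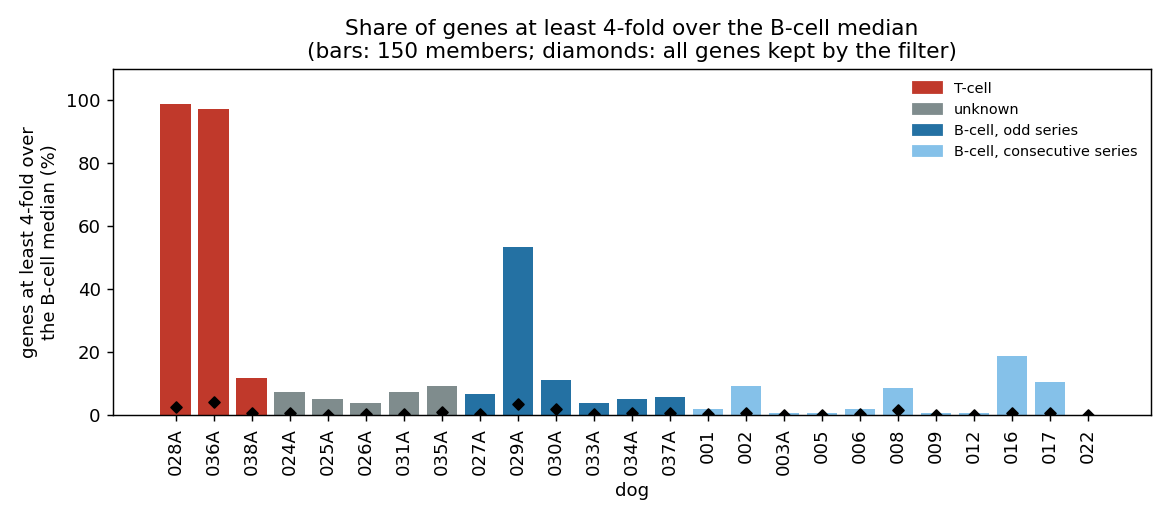
Share of the 150 members (bars) and of all genes kept by the filter (diamonds) at least 4-fold over the B-cell median in each dog, in percent. Dogs 028A and 036A reach 98.7% and 97.3%, dog 029A 53.3% and dog 016 18.7%, while every diamond is at 4.43% or lower.

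The members were not uniform among the dogs that are not labelled T-cell. A group of 41 members was past 4-fold in none of the 22 other dogs and also under it in dog 038A. All 41 were past it in both dogs 028A and 036A, which the rule fixes for any member under 4-fold in dog 038A. Their differences ran from 3.27 to 7.30 with a median of 4.17, and 6 of them were among the 20 members with the largest difference. A further 37 members were past 4-fold in exactly 1 of the 22 dogs, 40 in 2 dogs and 32 in 3 or more. The same counts over all genes were not computed, so these are not read as particular to the members.

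Dog 029A, labelled B-cell with short survival, carried more of the members than any other dog apart from 028A and 036A. It was past 4-fold in 80 members, 53.3% of the 150, against a background of 3.78%, and was the highest of the 17 B-cell dogs in 80 members (background 19.1%). On log2(FPKM + 1) it was past 4-fold in 57 members (share over all genes not computed). The rule used this dog only as 1 of the 17 behind the B-cell median. It passed the lower of dogs 028A and 036A in 25 members and both in 2. In the 80 members past 4-fold in dog 029A the median difference from the B-cell median was 3.35 in that dog, 4.21 in dog 028A and 4.81 in dog 036A, on the log2 scale. In the remaining 70 members it was 1.23, 4.36 and 5.00. In both sets the medians of dogs 028A and 036A were above that of dog 029A. The sets were split by the values of dog 029A, and the rule favoured high values in dogs 028A and 036A. Nothing is therefore read from this order. Dog 029A also has the smallest count total. After every library was thinned to 9592039 counts it was past 4-fold in 78 members, dogs 028A and 036A in 147 and 146, and dog 038A in 19.

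Dog 016, labelled B-cell with long survival and in the consecutive series, had part of the same set. It was past 4-fold in 28 members (18.7% of the 150, background 0.685%), and 25 of the 28, or 89.3%, were among the 80 of dog 029A, of which they made up 31.2%. Across the 150 members the differences from the B-cell median in dogs 016 and 029A had a Pearson's r of 0.72, the highest among all pairs of the 25 dogs. The corresponding value was 0.53 for dogs 028A and 036A, 0.10 for dogs 028A and 029A and 0.19 for dogs 029A and 036A. The values of every pair share the same subtracted median, and selection by the rule bears on the T-cell dogs. Neither the overlap nor r was computed over all genes, so the likeness of dogs 016 and 029A is not read as particular to the members. Median differences in dog 016 were 1.37 in the 80 members and -0.14 in the other 70. No other dog of the consecutive series was past 4-fold in more than 16 members, the count in dog 017 (background 0.749%).

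**Figure D3:**
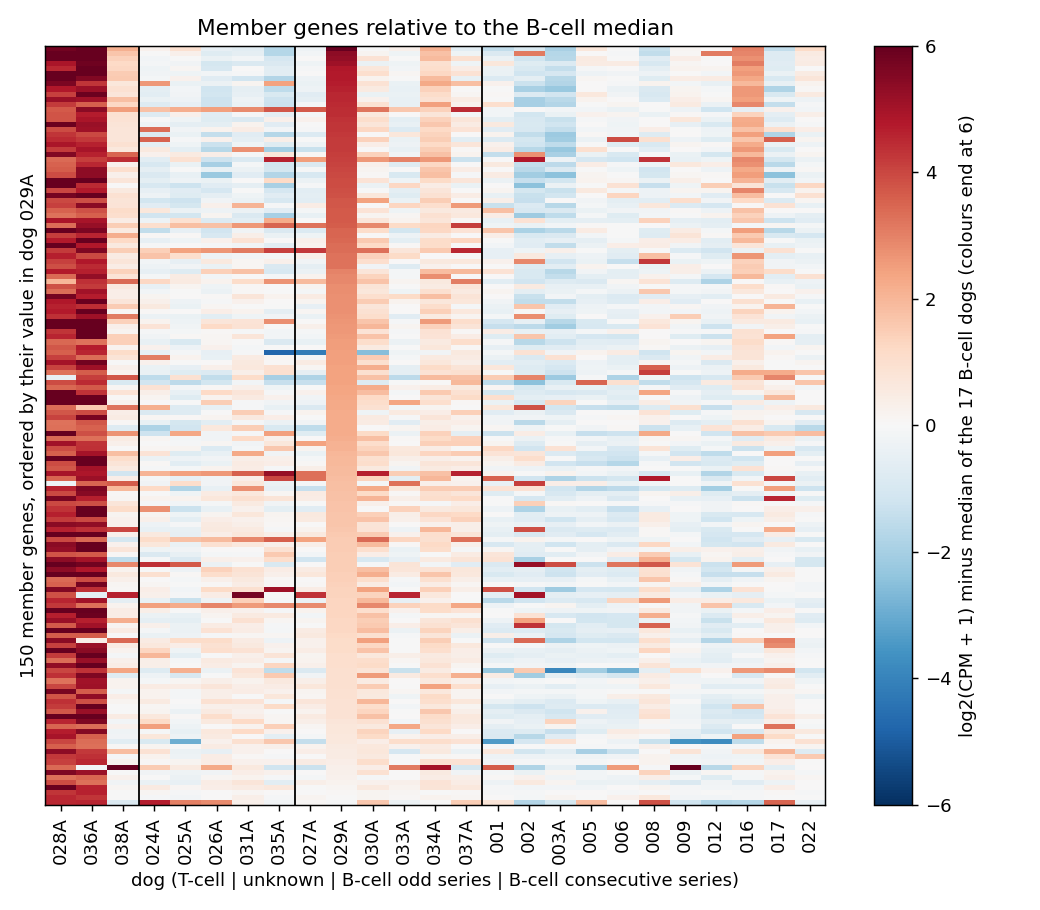
Members (150 horizontal lines, ordered by their value in dog 029A) in each dog, coloured by log2(CPM + 1) minus the median of the 17 B-cell dogs, red for higher and blue for lower, with vertical lines between T-cell, unknown, odd-series B-cell and consecutive-series B-cell dogs. Dogs 028A and 036A are red in nearly all members, and dog 016 is red mainly in the upper part, where dog 029A is highest. Its median difference is 1.37 in the 80 members past 4-fold in dog 029A.

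**Figure D4:**
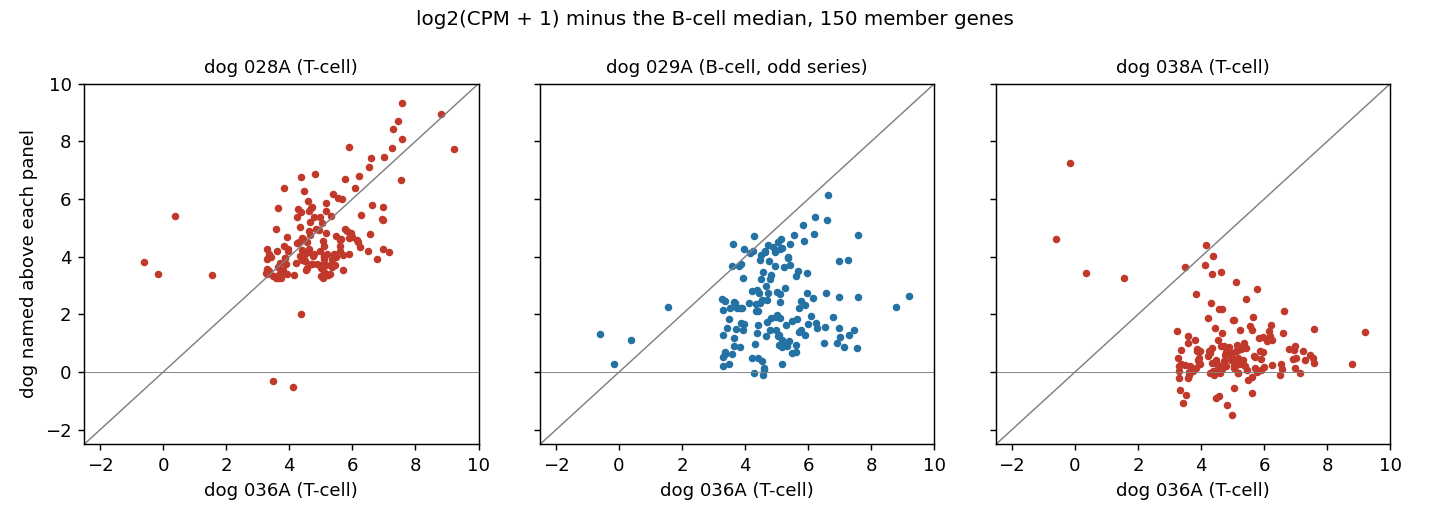
Difference of each member from the B-cell median, in log2(CPM + 1), in dog 036A (horizontal axis) against dogs 028A, 029A and 038A (vertical axes), with the diagonal of equal values. Dog 028A lies around the diagonal, dog 029A mostly below it, and dog 038A mostly near 0 with a median of 0.50.

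The members also varied together among the B-cell dogs. Over these 17 dogs the median Pearson's r between pairs of members was 0.47, against 0.126 between pairs of all genes kept by the filter. It was 0.342 without dog 029A (all genes 0.12) and 0.2 within the 11 dogs of the consecutive series (all genes 0.128). These values carry no test, and what count totals or the series contribute to them was not tested. The rule also used these 17 dogs.

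All T-cell dogs are in the odd series, so the series was compared within the B-cell dogs, 6 odd against 11 consecutive, with edgeR's quasi-likelihood test on the counts of 18350 genes and Benjamini-Hochberg adjustment at a threshold of 0.05. The members were higher in the odd series more often than genes at large. Of the 140 members that passed the filter of this fit, 44 (31.4%) were higher in the odd series, against a background of 14.4%, and 0 were lower, against 14.9%. At an unadjusted p-value under 0.05, 71 were higher (background 22.9%) and 1 was lower (background 21.8%). The median log2 fold change was 1.22 over the 140 members and -0.07 over all genes. DESeq2 called 63 members higher (background 21.1%) and 1 lower (background 12.4%), and without a filter, with all 150 tested, edgeR called 49 higher (background 18.9%) and 1 lower (background 9.15%). The 11 consecutive dogs form most of the B-cell group, so the rule favoured genes that are low in them, and these counts are not independent of the selection.

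Dog 029A moved with this result. Without it, 25 members were higher (background 8.3%), 0 were lower (background 12.0%), 39 were higher (background 19.7%) and 1 lower (background 19.5%) at the unadjusted threshold, and the median log2 fold change was 0.34.

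ENSCAFG00000020788 and ENSCAFG00000027222 had the smallest p-values. ENSCAFG00000020788 had 0.295 to 1.03 CPM in the consecutive dogs with a median of 0.743 CPM, and 3.16, 3.65, 13.1, 17.2, 22.7 and 32.3 CPM in dogs 033A, 034A, 030A, 027A, 029A and 037A of the odd series. All odd dogs lay above all consecutive dogs, with a log2 fold change of 4.15 (standard error, SE, 0.38), with an edgeR adjusted p of 7.37e-06. In dog 037A, whose tables did not match, the gene had 9.59 FPKM, the lowest of the odd B-cell dogs and above the consecutive dogs, and without this dog the log2 fold change was 3.80 (edgeR adjusted p = 2.53e-05). The unknown dogs 024A, 026A, 025A and 031A, also in the odd series, had 2.83, 5.36, 5.62 and 10.3 CPM, dog 035A had more, and the T-cell dogs 028A, 036A and 038A had 18.5, 70.5 and 4.25 CPM. ENSCAFG00000027222 had 0.835 to 4.02 CPM in the consecutive dogs and 9.91 to 92.0 CPM in the odd B-cell dogs, a log2 fold change of 3.92 (SE 0.38), with an edgeR adjusted p of 8.74e-06. The highest of them was dog 037A again, and without it the log2 fold change was 3.64 (edgeR adjusted p = 3.89e-05). Its values in the unknown dogs were 13.2 to 54.7 CPM and in the T-cell dogs 52.9, 179 and 22.9 CPM. In both genes every odd-series dog, whatever its label, was above every consecutive dog.

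In 4 members all 6 odd B-cell dogs were above all 11 consecutive ones (background 1.11%), these 2 and ENSCAFG00000021495 and ENSCAFG00000021436, named after their values were seen. For all 4 the 5 unknown dogs were above the highest consecutive dog as well, whereas dog 038A was so in 2. ENSCAFG00000021495 had 0.982 to 6.70 CPM in consecutive B-cell dogs, 17.5 to 165.7 CPM in odd B-cell dogs, 26.4 to 247 CPM in unknown dogs, and 206, 188 and 2.00 CPM in the T-cell dogs. For such members the difference between T-cell and B-cell cannot be told apart from the series by the rule alone.

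Set against the 6 B-cell dogs of the odd series alone, the T-cell median was higher by 0.26 to 7.77 (log2) with a median of 3.52. It was at least 4-fold higher in 141 of the 150 members (background 1.37%), and in 92 it reached the 3.25 of the last member inside the limit. The rule used these same T-cell and B-cell values, so large differences follow from the selection and nothing is read from the counts.

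**Figure D5:**
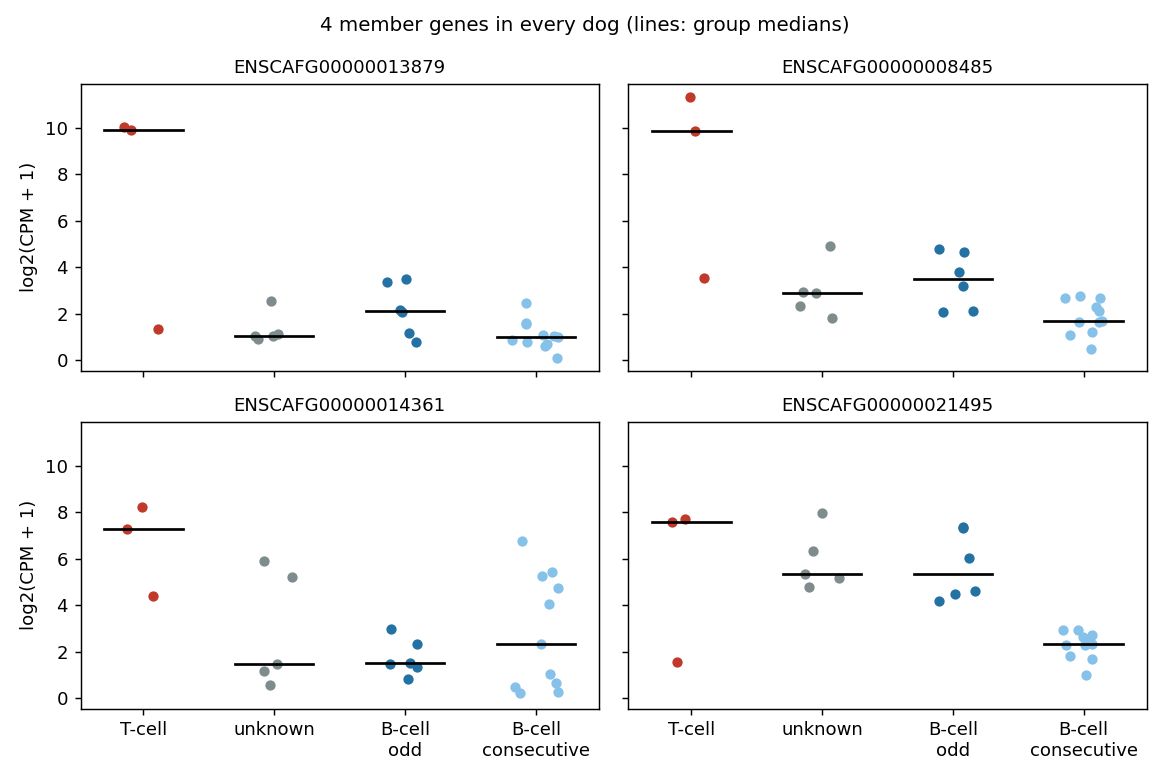
Values of 4 members in every dog as log2(CPM + 1), with lines at the medians of the T-cell (3 dogs), unknown (5), odd-series B-cell (6) and consecutive-series B-cell (11) groups. The first pair, with the largest differences, is high in 2 T-cell dogs alone. ENSCAFG00000014361 is also high in 2 unknown dogs and some consecutive dogs, and ENSCAFG00000021495 is high in all unknown and odd-series B-cell dogs and low in dog 038A.

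ENSCAFG00000014361 had 0.802 to 6.98 CPM in the odd B-cell dogs and 0.185 to 107 CPM in the consecutive dogs, where dogs 002, 003A, 008, 006 and 016 had 107, 42.0, 37.1, 26.1 and 15.8 CPM and the other 6 had at most 4.11 CPM. Its log2 fold change of -3.27 (SE 1.28) did not pass with edgeR and its filter (adjusted p = 0.0598), and passed with edgeR without a filter (adjusted p = 0.0496) and with DESeq2 (adjusted p = 0.0165). ENSCAFG00000011756 had up to 6.44 CPM in the odd B-cell dogs and 0.208 to 50.3 CPM in the consecutive dogs. Its medians, 3.41 and 0.630 CPM, lie in the order opposite to its log2 fold change of -1.42 (SE 1.14), with an edgeR adjusted p of 0.341. Among the consecutive dogs, 002 and 008 stood out with 50.3 and 28.0 CPM.

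The 5 unknown dogs, which the rule did not use, had the members at levels within the range of the B-cell dogs. Their median log2(CPM + 1) over the 150 members was 1.95 in dog 024A, 1.58 in dog 025A, 1.86 in dog 026A, 2.15 in dog 031A and 1.69 in dog 035A. All 5 were under the 2.53 of dog 038A and far under dogs 028A and 036A. The median difference from the B-cell median ran from -0.21 in dog 025A to 0.31 in dog 031A. Members past 4-fold numbered 11, 8, 6, 11 and 14 in dogs 024A, 025A, 026A, 031A and 035A, against backgrounds of 0.662%, 0.285%, 0.451%, 0.474% and 0.988%. As shares of the 150 these are 7.33%, 5.33%, 4%, 7.33% and 9.33%. In the B-cell dogs of the odd series the counts were 10 in dog 027A (background 0.529%), 17 in dog 030A (background 1.99%), 6 in dog 033A (background 0.363%), 8 in dog 034A (background 0.8%) and 9 in dog 037A (background 0.703%), beside the 80 of dog 029A. Counted on log2(FPKM + 1), they were 5, 9, 7, 9 and 13 in dogs 024A, 025A, 026A, 031A and 035A. In dogs 027A, 030A, 033A, 034A and 037A they were 10, 8, 3, 2 and 1, beside 57 in dog 029A. No share over all genes was computed on this scale.

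Over the 5 dogs, 29 members were past 4-fold in at least 1 and 17 of the 29 were also past it in at least 1 odd B-cell dog other than 029A, as were 32 of all 150. The same counts over all genes were not computed, so this overlap is not read as particular to the members. Only 2 members were past 4-fold in all 5 unknown dogs, ENSCAFG00000021495, described above, and ENSCAFG00000025873, named after its values were seen. ENSCAFG00000025873 had 46.1, 39.8, 64.4, 50.3 and 63.2 CPM in dogs 024A, 025A, 026A, 031A and 035A. It had 18.4 to 63.6 CPM in the odd B-cell dogs, 3.66 to 27.5 CPM in the consecutive dogs, and 164, 84.4 and 9.01 CPM in the T-cell dogs. The unknown dogs thus overlapped the odd B-cell dogs, and neither gene was past 4-fold in dog 038A. Dog 035A exceeded all 17 B-cell dogs in 8 members, 5.33% of the 150, and its background of 5.33% was the same. Dogs 024A, 025A, 026A and 031A did so in 4, 1, 1 and 2 members, with backgrounds of 5.36%, 1.76%, 2.4% and 2.45%.

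The unknown dogs were compared with the 6 B-cell dogs of the odd series by edgeR's quasi-likelihood test. These B-cell dogs are shared with the rule. Of 19040 genes tested, 0 passed the adjusted threshold in either direction (background 0.0%), and neither did any of the 142 members that passed the filter. At an unadjusted p-value under 0.05, 3 members were higher in the unknown dogs (2.11%, background 5.95%) and 45 were lower (31.7%, background 6.56%). DESeq2 called 1 member higher (background 0.021%) and 2 lower (background 0.121%) after adjustment, and limma on log2(FPKM + 1) called 0, with 2 members higher (background 1.74%) and 19 lower (background 3.71%) unadjusted. The median log2 fold change was -0.87 over the 142 members and -0.10 over all genes, and no member had all 5 unknown dogs above all 6 B-cell dogs (background 0.166%). In 3 members all 5 were below all 6 (background 0.68%).

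Without dog 029A, 2 members were higher (background 4.23%) and 26 lower (background 3.55%) at the unadjusted threshold, and the median log2 fold change was -0.45. Against all 17 B-cell dogs, which brings in the consecutive series, 5 members were higher (background 4.5%) and 18 lower (background 5.77%), with a median of -0.19. The median was thus nearer to 0 with either change of the B-cell dogs.

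No named member passed with edgeR. ENSCAFG00000006465 had 95.2, 29.3, 25.3, 3.64 and 2.20 CPM in dogs 024A, 025A, 026A, 031A and 035A, and 1.89 to 10.5 CPM in the odd B-cell dogs. Dogs 024A, 025A and 026A stood above these B-cell dogs, and the other 2 within them. The log2 difference was 2.94 (SE 0.83), with an adjusted p of 0.381 in edgeR and 0.0391 in DESeq2. Without dog 024A, whose tables did not match, it was 1.97 (edgeR adjusted p = 0.661), and on log2(FPKM + 1) with all 5 dogs it was 1.14 (limma adjusted p = 0.775). On the FPKM scale dog 024A had 5.01 FPKM in this gene, below the 9.16 FPKM of dog 025A and the 26.5 and 27.8 FPKM of dogs 028A and 036A. Dogs 028A, 036A and 038A had 84.2, 87.8 and 1.07 CPM, and dogs 008 and 017 of the consecutive series had 51.5 and 41.6 CPM. ENSCAFG00000014361 had 58.5 and 36.4 CPM in dogs 024A and 025A and at most 1.82 CPM in the other 3, a log2 fold change of 3.09 against odd B-cell dogs (SE 1.06), with an edgeR adjusted p of 0.381. Without dog 024A it was 2.27. Its T-cell values were 297, 156 and 20.1 CPM.

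Among those lower in the unknown dogs, ENSCAFG00000012880 had 3.30 to 7.13 CPM in the unknown dogs and 6.77 to 232 CPM in the odd B-cell dogs, with the highest value in dog 029A. The log2 difference was -3.13 (SE 0.85), with an edgeR adjusted p of 0.381. Without dog 029A it was -1.80 (SE 0.52), with an edgeR adjusted p of 0.63. ENSCAFG00000012579 had 1.13 to 3.40 CPM in the unknown dogs and 2.32 to 66.7 CPM in the odd B-cell dogs, again highest in dog 029A. The log2 difference was -2.90 (SE 0.80), with an edgeR adjusted p of 0.381. Without dog 029A it was -1.97 (SE 0.61), with an edgeR adjusted p of 0.63. DESeq2 called both lower (adjusted p = 0.0277 and 0.0281).

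Survival was compared within the B-cell dogs, 5 short against 12 long, with the same test on 19259 genes. None of the 141 members tested by edgeR passed the adjusted threshold (background 0.0% higher and 0.00519% lower), and DESeq2 called 0 members (backgrounds 0.13% and 0.208%), with 25 higher (background 6.06%) and 1 lower (background 4.86%) unadjusted. At an unadjusted p-value under 0.05, 33 members were higher in short survival (23.4%, background 4.31%) and 1 was lower (background 4.55%), and the median log2 fold change was 0.93 against 0.01 over all genes. Long survival makes up 12 of the 17 dogs behind the B-cell median, so the rule favoured genes low in those dogs and these counts are not independent of the selection. Dog 029A has short survival. Without it, 4 members were higher (background 2.08%) and 2 lower (background 3.02%), and the median was -0.01. With the series as covariate and dog 029A included, 4 were higher (background 1.72%) and 1 lower (background 2.73%), with a median of 0.34.

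ENSCAFG00000012579 had 2.32, 5.39, 25.9 and 66.7 CPM in dogs 027A, 001, 030A and 029A with short survival, with dog 009 between them, and 0.962 to 13.1 CPM with a median of 3.34 CPM in long survival. The log2 difference was 1.98 (SE 0.55), with an edgeR adjusted p of 0.527, and 1.13 (SE 0.53) without dog 029A. ENSCAFG00000001106 had 2.23, 5.70, 11.5, 24.8 and 68.1 CPM in dogs 009, 027A, 029A, 030A and 001 and 0.128 to 12.1 CPM in long survival. The log2 difference was 2.48 (SE 0.71), with an edgeR adjusted p of 0.527. Without dog 001, the highest, it was 1.18 (edgeR adjusted p = 0.436), and without dog 029A it was 2.68 (edgeR adjusted p = 0.667). In both genes the survival groups overlapped. ENSCAFG00000014361, lower in short survival by 3.04 on the log2 scale, and ENSCAFG00000012931, lower by 2.14, did not pass either (edgeR adjusted p = 0.556 and 0.59). Survival was not compared among the T-cell dogs, of which only 028A had short survival.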

How the data were processed

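The raw counts were deposited by the authors as whole numbers per gene, after alignment of single reads with HISAT2 2.1.0 to CanFam3.1 and quantification with StringTie 1.3.3. The FPKM values were deposited by the authors after calculation with Ballgown. Strand setting and the treatment of reads shared between genes are not given in the sources used here, so overlapping genes and near-identical copies are uncertain. Columns of per-sample values not used numbered 0. Groups follow the labels. The paper counts 1 fewer B-cell dog and 1 more without immunophenotype than the labels, and this dog was not identified.

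The members and gene lists were chosen with earlier results of these data known. Because no identifier matched a symbol, the lists of lineage genes (T-cell, B-cell and other cell types) were not run. Identifiers are named for the 2 largest differences and, in each tested comparison, the 2 members of smallest p on either side of 0. Others are marked as named after their values were seen. The rule needed no test. Counts were compared with edgeR 4.0.16 (filterByExpr, TMM, glmQLFit and glmQLFTest, R 4.3.3) over all genes kept, with Benjamini-Hochberg adjustment at 0.05. The standard error is the log2 fold change divided by the square root of F. DESeq2 1.42.0, limma 3.58.1 on log2(FPKM + 1) and on log2(FPKM + 0.1), no filter, other groups of dogs, covariates and leaving out single dogs were alternatives. The tests were checked on simulated counts. Totals of 9592039 to 28979456 counts per dog leave members of few reads imprecise.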

Additional observations from a re-analysis of the deposited data

Results flagged for a closer look

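For groups of 5 or 6 dogs, each extreme dog's distance from its neighbour was divided by the whole range, over 51 combinations of measure and group, and 8 values stood apart by Dixon's test. By chance about 1 in 20 would, for normally distributed values and independent measures. Here the named genes were chosen from these same data and the B-cell groups share dogs, so the 8 are not read against that rate.

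Dog 029A accounted for 4 of the 8 values. The summed CPM of the members was 9520 in this dog, against 2150 in the next of the 6 odd-series B-cell dogs and 1910 in the next of the 5 B-cell dogs with short survival (the same 9520 stands apart in both groups). Among the dogs with short survival it also stood apart in ENSCAFG00000012880 (7.86 log2(CPM + 1), next 4.42) and in ENSCAFG00000012931 (2.61, next 0.786). With all libraries thinned to the total of dog 029A, 78 members were past 4-fold in it.

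The agreement of counts with FPKM values over the members stood apart in dog 037A among the odd-series B-cell dogs (r = 0.0564, next 0.873) and in dog 024A among the unknown dogs (r = 0.652, next 0.91). Among the unknown dogs, dog 026A stood apart in ENSCAFG00000013879 (2.57 log2(CPM + 1), next 1.14) and dog 035A in ENSCAFG00000001106 (7.41, next 3.47).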

How the results depend on the processing

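Of the 150 members, the rule kept 84 without dog 028A and 88 without dog 036A, so single T-cell dogs decide which genes belong, and it kept 122 without dog 038A. Under the other settings it kept from 105 (FPKM table) to 149 (genes kept by the filter), among them 114 with a pseudocount of 0.1, 118 with means and 128 with B-cell dogs of the odd series alone. Added after seeing the data, it kept 144 with thinned libraries and 145 without dog 029A or without dog 037A. Between unknown and odd-series B-cell dogs, 0 members were called in the main comparison and in each fit that left out 1 dog, and 3 with DESeq2. Between the series, 44 of 140 members were called, all higher (31.4%, all genes 2643 of 18350). With the letter A at the end of the dog's identifier in place of the series, it was 17 of 135 (12.6%, all genes 589 of 17542). With survival as covariate it was 22 of 140 (15.7%, all genes 946 of 18350). Added after seeing the data, it was 25 of 140 without dog 029A (17.9%, all genes 1535 of 18490). Without dog 037A, also added, it was 46 of 141 (32.6%, all genes 2199 of 18733). The number of all genes called higher thus moved as well. Fits without 1 dog thus gave 25 to 46. DESeq2 (64) and no filter (50) stayed within 1.5 times. The median log2 fold change of all genes between the series was -0.07 with edgeR, 0.08 with DESeq2 and 0.67 without a filter. For survival 0 members were called under every setting run. With DESeq2 the log2 fold change between the series reversed for 5 named members, from -1.42 to 0.0799 in ENSCAFG00000011756, from -0.07 to 2.24 in ENSCAFG00000012931 (adjusted p = 0.00526), from -0.07 to 1.60 in ENSCAFG00000001106 (adjusted p = 0.0285), from -0.65 to 1.18 in ENSCAFG00000003432 and from -0.10 to 0.09 in ENSCAFG00000003103. ENSCAFG00000003432 also reversed between survival groups, from -1.36 to 0.06. The cause was not tested. No paired analysis was possible because the labels give no replicate numbers that pair dogs.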
